A study of Mus musculus with 8 samples.

Results

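The 9 genes described here were listed together as protease inhibitor genes and were chosen by name, of 23369 genes in the count table. The choice was made with earlier results of these data known. Whether each protein inhibits a protease was not examined. Slpi and Serpinb1a act on serine proteases, Wfdc17 and Wfdc21 encode small proteins of the whey acidic protein (WAP) family, and Stfa1, Stfa2, Stfa2l1, Stfa3 and Cstb encode stefins, which act on cysteine cathepsins. All 9 passed the filter on low counts and were among the 12610 genes tested. Neutrophils had been sorted as CD45+CD11b+Ly6G+ cells from digested spinal cords of mice of the C57BL/6N strain in which experimental autoimmune encephalomyelitis (EAE) had been induced, a model of multiple sclerosis in which immune cells attack the brain and spinal cord. Cords were taken at ZT13 (4 libraries) or at ZT1 (4 libraries), where zeitgeber time (ZT) counts hours from lights on. Every library came from EAE mice, so no healthy animal entered the comparison, and the sources used here give no age, no sex and no manner of EAE induction. The labels give 11000 to 50000 sorted cells per mouse, name no animals and put all libraries in 1 batch, so p-values measure the spread between these libraries.

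A neutrophil packs its azurophil granules with the serine proteases elastase, proteinase 3 and cathepsin G, and carries cysteine cathepsins in its lysosomes. Inhibitors in the cytosol and in secretions limit the activity of these enzymes when granules leak or are discharged. Slpi and serpin B1 block elastase and cathepsin G, serpin B1 also blocks proteinase 3, and stefins bind papain-like cathepsins such as cathepsins B, H, L and S. Mice carry several stefin A genes side by side, where humans carry a single cystatin A gene.

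The cell sort was visible in the transcripts. Itgam (CD11b) stood at 488 ± 14.9 CPM at ZT13 and 482 ± 16.8 at ZT1, Ptprc (CD45) at 1601 ± 56.0 and 1815 ± 144, and Ly6g at 485 ± 24.2 and 369 ± 108 (mean ± SD, n = 4 each; CPM is the count of a gene relative to its library's total, adjusted by TMM factors). Total counts per library lay between 46152067 and 67873023. Genes with a count numbered 13945 to 15751 at ZT13 and 15760 to 17701 at ZT1. Every ZT13 library thus had fewer than every ZT1 library. ZT13 replicate 3 had the fewest detected genes and ZT1 replicate 3 the most. Transcripts of monocytes and macrophages (14 of 14 marker genes in the table) summed to 2297 to 3222 CPM at ZT13 and 2323 to 3262 at ZT1, those of microglia (9 of 9) to 125 to 235 and 136 to 199, and those of T and NK cells (10 of 11) to 1.93 to 8.98 and 2.01 to 5.75. Sums for B cells (4 of 7 marker genes) were 154 to 194 and 136 to 249 CPM, for neural cells (6 of 10) 109 to 219 and 104 to 166, for endothelial cells (6 of 6) 10.7 to 19.4 and 14.1 to 24.1, for erythroid cells (7 of 7) 2.59 to 30.1 and 0.422 to 3.82, and for eosinophils, basophils and mast cells (8 of 10) 23.6 to 40.2 and 23.7 to 32.3, at ZT13 and at ZT1. Of 13 neutrophil marker genes, 11 were higher on average at ZT13 (median log2 fold change 0.34, 0 called in edgeR). Of the 14 monocyte and macrophage genes, 6 were higher and 8 lower on average at ZT13 (median log2 fold change -0.16, 0 called in edgeR). Ly6c2, the most abundant of them, averaged 1165 ± 90.5 CPM at ZT13 and 834.5 ± 159.7 at ZT1. Ccr2 averaged 382 ± 91.1 CPM at ZT13 and 506 ± 50.0 at ZT1, so like sums can hide opposite differences. The part of detected genes and of these cells in the results below was not tested. In bulk samples, fewer cells of a type and less RNA per cell cannot be told apart.

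The sequences show what the members share. WAP proteins are recognised by closely spaced cysteines that form disulphide bonds, and the coding sequences of Wfdc17 and Wfdc21 are printed here with their cysteine codons in capitals. Both are read from transcripts of the GENCODE M21 annotation of GRCm38.
Wfdc17: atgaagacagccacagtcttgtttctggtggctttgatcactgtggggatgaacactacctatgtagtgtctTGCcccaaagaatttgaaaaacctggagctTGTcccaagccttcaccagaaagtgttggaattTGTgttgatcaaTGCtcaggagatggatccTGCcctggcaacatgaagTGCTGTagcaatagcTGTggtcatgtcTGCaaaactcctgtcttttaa
Wfdc21: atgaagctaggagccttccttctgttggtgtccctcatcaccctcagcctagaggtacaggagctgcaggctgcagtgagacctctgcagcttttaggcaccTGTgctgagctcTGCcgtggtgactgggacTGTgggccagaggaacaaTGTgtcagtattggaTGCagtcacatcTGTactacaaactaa
Wfdc17 has 9 cysteine codons among 76 codons and Wfdc21 has 6 among 63. Slpi, which has a pair of WAP domains, has 17 among 131.

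Stefins hold their target in part with a short loop that is conserved across the cystatin superfamily. The next lines give 51 coding bases around it, with the bases of the loop in capitals, for 5 of the members and for Gm5483 and BC100530 of the same gene cluster.
Stfa2l1: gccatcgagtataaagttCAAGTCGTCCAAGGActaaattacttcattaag
Stfa2: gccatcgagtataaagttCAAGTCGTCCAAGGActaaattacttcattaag
Stfa3: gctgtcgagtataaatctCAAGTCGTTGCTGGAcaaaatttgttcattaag
Stfa1: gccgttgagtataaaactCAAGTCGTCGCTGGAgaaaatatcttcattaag
Gm5483: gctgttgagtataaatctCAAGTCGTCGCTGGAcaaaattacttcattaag
BC100530: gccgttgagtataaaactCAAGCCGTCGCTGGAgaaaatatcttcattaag
Cstb: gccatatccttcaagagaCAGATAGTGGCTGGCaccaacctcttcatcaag
Stfa2l1 and Stfa2 are the same in this stretch. Over whole coding sequences Stfa2l1 and Stfa2 were 96.5% identical, and the other pairs of stefin A members were 56.5% to 81.7% identical. Cstb, the stefin B gene, was 46.9% to 60.3% identical to the stefin A genes of the cluster.

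The likeness of Stfa2l1 and Stfa2 matters for reads of 50 bases. Their coding sequences, each of 312 bases, differ at 11 bases, and the longest run without a difference is 97 bases. Coding bases 61 to 200 of the pair are printed with the differing bases in capitals.
Stfa2l1: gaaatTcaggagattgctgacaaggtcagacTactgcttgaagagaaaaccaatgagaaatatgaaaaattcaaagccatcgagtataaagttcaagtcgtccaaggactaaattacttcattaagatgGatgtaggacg
Stfa2: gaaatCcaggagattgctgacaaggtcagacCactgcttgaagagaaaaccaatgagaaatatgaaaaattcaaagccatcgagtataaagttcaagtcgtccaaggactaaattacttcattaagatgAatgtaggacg
Any read that falls between the capitals could come from either gene.

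The 9 genes lie at 5 places in the genome (GRCm38, GENCODE M21). Slpi (ENSMUSG00000017002.15) is at chr2:164354070-164389095 on the minus strand, Serpinb1a (ENSMUSG00000044734.17) at chr13:32842092-32851185 on the minus strand and Cstb (ENSMUSG00000005054.8) at chr10:78425669-78427622 on the plus strand. Wfdc17 (ENSMUSG00000069792.6) at chr11:83703991-83706268 and Wfdc21 (ENSMUSG00000051748.3) at chr11:83746940-83752642 lie near each other on the plus strand. The stefin A cluster spans chr16:36119946-36455392, which is 335447 bases with 11 annotated genes, of which 10 are in the count table. Within it Stfa2l1 (ENSMUSG00000059657.6) is at chr16:36156811-36161953 and Stfa1 (ENSMUSG00000071562.7) at chr16:36276951-36285373 on the plus strand. Stfa2 (ENSMUSG00000022902.9) is at chr16:36403992-36408457 and Stfa3 (ENSMUSG00000054905.3) at chr16:36450537-36455392 on the minus strand.

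Relative to transcript length, the WAP genes were the most abundant of the 9. In TPM (counts per exon length, scaled to a fixed total in each library) and averaged over the 8 libraries, Wfdc21 had a level of 5904 TPM and ranked 14 of all genes in the table. Wfdc17 had 5444 TPM (rank 15), Slpi 2025 TPM (rank 36) and Serpinb1a 849 TPM (rank 101). Cstb with 294 TPM (rank 315) and Stfa2l1 with 249 TPM (rank 365) were of like level. The other stefin A members were lower, with 58.2 TPM for Stfa1, 23.5 TPM for Stfa2 and 12.8 TPM for Stfa3. For comparison, the elastase gene Elane had 261 TPM and the cathepsin B gene Ctsb 414 TPM.

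The question of the design is how these transcripts differ between ZT13, early in the dark phase of a standard light cycle, and ZT1, early in the light phase. All 9 genes had a higher mean at ZT13, with log2 fold changes of 0.23 to 0.93 for ZT13 over ZT1, and none passed the threshold of an adjusted p of 0.05. The edgeR quasi-likelihood test called 0 of 9 genes, beside 0.0% of the 12610 genes tested, with adjusted p-values of 0.491 to 0.839. DESeq2 also called 0 of the 9, beside 0.94% of 12553 genes, with a smallest adjusted p of 0.0935 for a member. With limma-voom 0 of the 9 were called, and the share of all genes called there is not given here. At an unadjusted p under 0.05 stood 5 of the 9 in edgeR, all higher at ZT13, beside 4.35% of all genes tested (9.2% in either direction), 6 in DESeq2, beside 5.31%, and 6 in limma-voom, beside 4.96%, all of them higher at ZT13. The median log2 fold change of the 9 genes was 0.71, beside -0.02 for all genes tested. Positive values were found in 9 of 9, beside 47.7% of all genes. Because the genes were chosen with earlier results of these data known, these shares do not test the 9 as a group. Among other genes of 1200 exon bases or less and 8 or more CPM, 29.8% stood at that p in edgeR with higher values at ZT13.

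**Figure D1:**
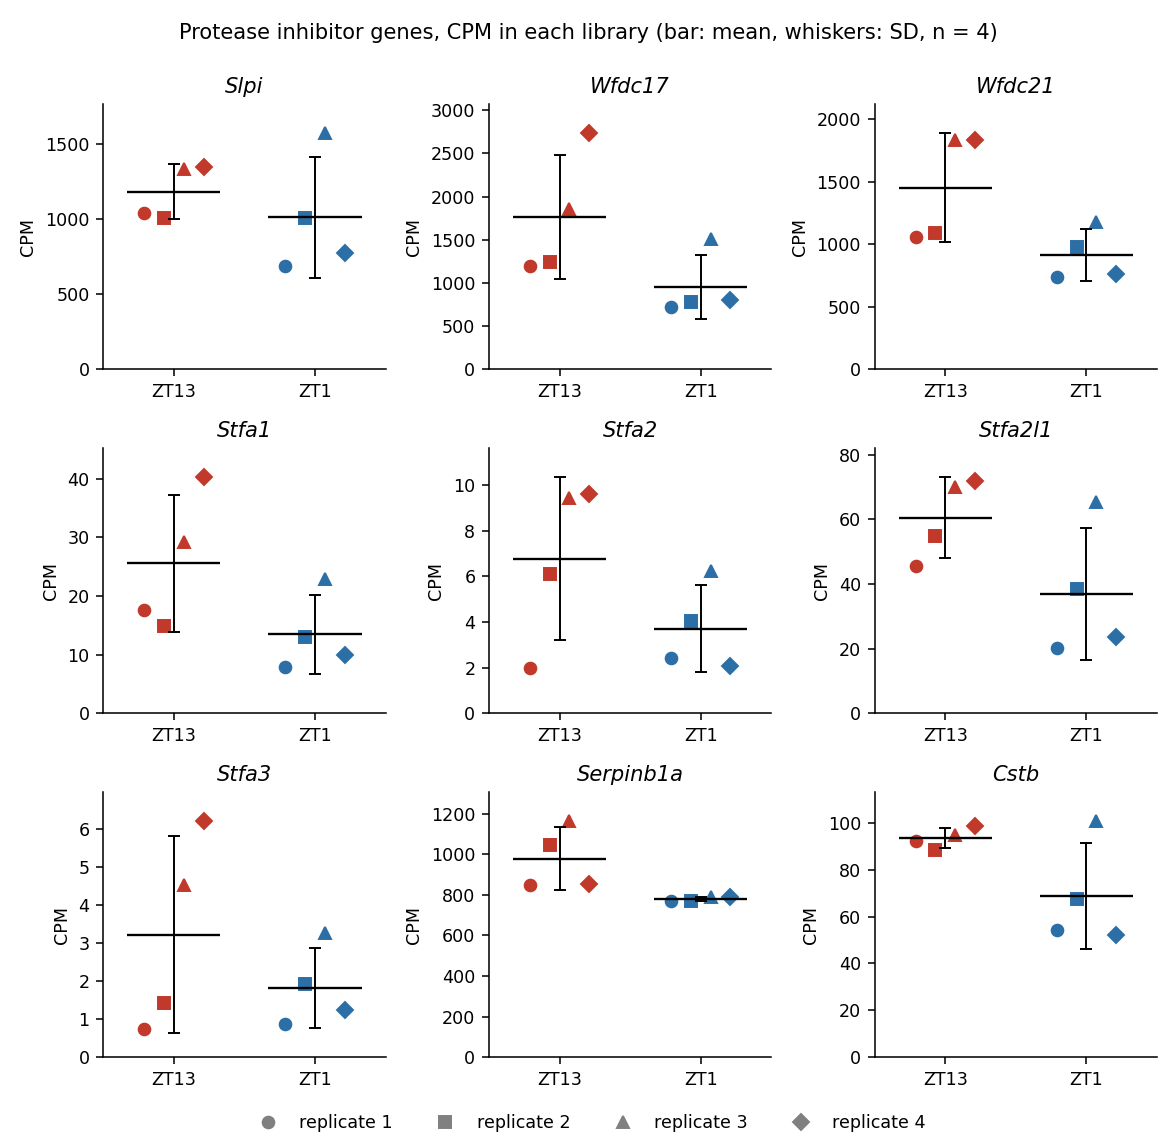
CPM of each inhibitor gene in each library, with ZT13 left and ZT1 right in each panel, the mean as a bar and the SD as whiskers (n = 4). On this TMM-adjusted scale Serpinb1a is the gene whose groups do not overlap (849 to 1165 CPM at ZT13, 769 to 788 at ZT1), although they overlap when scaled by library totals or in TPM, and ZT1 replicate 3 (triangle) lies within or above the ZT13 range in the other 8 genes.

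Slpi encodes the secretory leukocyte protease inhibitor, which blocks elastase and cathepsin G. It had 1040, 1003, 1332 and 1343 CPM in the ZT13 libraries (replicates 1 to 4), against 684, 1007, 1571 and 772 CPM in the ZT1 libraries. The groups overlapped, since ZT1 replicate 3 was the highest library of all and ZT1 replicate 2 lay beside the lower pair of ZT13 libraries. The mean was 1180 ± 183 CPM at ZT13 and 1008 ± 399 at ZT1 (SD, n = 4). The log2 fold change of 0.23 ± 0.24 (SE, 95% interval -0.31 to 0.76) was within the spread between libraries (unadjusted edgeR p of 0.368 and adjusted p of 0.839). Without ZT1 replicate 3 the log2 fold change was 0.52, and without ZT1 replicate 1 it was 0.08.

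Serpinb1a encodes serpin B1, a cytosolic inhibitor of elastase, proteinase 3 and cathepsin G. Its level was 849, 1043, 1165 and 854 CPM in the ZT13 libraries and 772, 769, 788 and 788 CPM in the ZT1 libraries. Every ZT13 library lay above every ZT1 library on this scale, and also with DESeq2 size factors or upper-quartile factors. The groups overlapped with library totals alone, at 825 to 1093 CPM at ZT13 and 741 to 842 at ZT1, and in TPM, at 716.7 to 984.6 at ZT13 and 703.7 to 921.3 at ZT1. On the TMM scale it was the single member without overlap, beside 2.66% of all genes tested that were higher at ZT13 without overlap and 5.65% without overlap in either direction. The ZT1 libraries were close together, with a mean of 779 ± 10.2 CPM, against 978 ± 154 CPM at ZT13 (SD, n = 4). The log2 fold change was 0.33 ± 0.11 (SE, 95% interval 0.08 to 0.57), with an unadjusted edgeR p of 0.0138 and an adjusted p of 0.491. It stayed between 0.23 and 0.39 when any library was left out.

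Wfdc17 encodes a secreted WAP protein that has been described in mouse macrophages and microglia. It had 1194, 1245, 1860 and 2738 CPM at ZT13, against 721, 784, 1504 and 802 CPM at ZT1. ZT13 replicates 3 and 4 lay above all ZT1 libraries, while ZT1 replicate 3 lay above ZT13 replicates 1 and 2. The means were 1759 ± 720 CPM at ZT13 and 953 ± 369 at ZT1 (SD, n = 4). The log2 fold change was 0.88 ± 0.31 (SE, 95% interval 0.19 to 1.58; unadjusted edgeR p of 0.0176 and adjusted p of 0.491). It ranged from 0.59 without ZT13 replicate 4 to 1.19 without ZT1 replicate 3.

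Wfdc21, a WAP gene near it, had 1057, 1094, 1833 and 1832 CPM at ZT13, against 736, 976, 1182 and 763 CPM at ZT1. Its order of libraries was like that of Wfdc17, with ZT1 replicate 3 between the lower and the upper pair of ZT13 libraries. The means were 1454 ± 437 CPM at ZT13 and 914 ± 208 at ZT1 (SD, n = 4). For Wfdc21 the log2 fold change was 0.67 ± 0.22 (SE, 95% interval 0.17 to 1.17; unadjusted edgeR p of 0.0142 and adjusted p of 0.491). Of 20 other WAP genes listed, 5 were in the table and 1 was tested. That gene, Wfdc18, averaged 2.32 ± 1.15 CPM at ZT13 and 1.67 ± 0.312 at ZT1 (edgeR adjusted p = 0.841).

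Among the stefin A members, Stfa2l1 had the most counts. It had 45.6, 54.8, 70.0 and 72.03 CPM at ZT13, against 20.3, 38.4, 65.3 and 23.7 CPM at ZT1. The groups overlapped through ZT1 replicate 3 alone, and the other 3 ZT1 libraries lay below all ZT13 libraries. The means were 60.6 ± 12.6 CPM at ZT13 and 36.9 ± 20.5 at ZT1 (SD, n = 4). The log2 fold change was 0.71 ± 0.34 (SE, 95% interval -0.05 to 1.48; unadjusted edgeR p of 0.0634 and adjusted p of 0.570). With 1 library left out the log2 fold change ranged from 0.51 without ZT1 replicate 1 (edgeR adjusted p = 0.867) to 1.14 without ZT1 replicate 3 (edgeR adjusted p = 0.143).

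Stfa1 had 17.6, 14.9, 29.3 and 40.3 CPM at ZT13, against 7.86, 12.99, 22.9 and 9.89 CPM at ZT1. ZT1 replicate 3 again lay between the lower and the upper pair of ZT13 libraries. The means were 25.5 ± 11.7 CPM at ZT13 and 13.4 ± 6.69 at ZT1 (SD, n = 4). For Stfa1 the log2 fold change of 0.93 ± 0.40 (SE, 95% interval 0.04 to 1.82) was the largest of the 9 members in this fit (unadjusted edgeR p of 0.0422 and adjusted p of 0.531).

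Stfa2 and Stfa3 were counted less. Stfa2 had 1.99, 6.09, 9.46 and 9.61 CPM at ZT13, against 2.42, 4.06, 6.26 and 2.07 CPM at ZT1, from 101 to 471 counts per library. ZT13 replicate 1 was the lowest of all 8 libraries and ZT13 replicates 3 and 4 were the highest. Stfa3 had 0.729, 1.41, 4.54 and 6.22 CPM at ZT13, against 0.860, 1.91, 3.27 and 1.24 CPM at ZT1, from 37 to 277 counts. The same libraries stood at its ends. The log2 fold change was 0.88 ± 0.53 for Stfa2 (SE, edgeR adjusted p = 0.675) and 0.82 ± 0.71 for Stfa3 (SE, edgeR adjusted p = 0.798), both within the spread between libraries. For Stfa3 it was 0.29 without ZT13 replicate 4 and 1.27 without ZT1 replicate 3.

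Cstb encodes stefin B, an inhibitor of cysteine cathepsins present in most cell types. It had 92.2, 88.6, 94.6 and 98.5 CPM at ZT13, against 54.4, 67.4, 100.9 and 52.3 CPM at ZT1. The ZT13 libraries lay close together, and ZT1 replicate 3 lay above all of them while the other 3 ZT1 libraries lay below. The means were 93.5 ± 4.16 CPM at ZT13 and 68.8 ± 22.4 at ZT1 (SD, n = 4). For Cstb the log2 fold change was 0.44 ± 0.19 (SE, 95% interval 0.01 to 0.88; unadjusted edgeR p of 0.0469 and adjusted p of 0.539). With 1 library left out it ranged from 0.33 without ZT1 replicate 4 (edgeR adjusted p = 0.860) to 0.69 without ZT1 replicate 3 (edgeR adjusted p = 0.108).

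**Figure D2:**
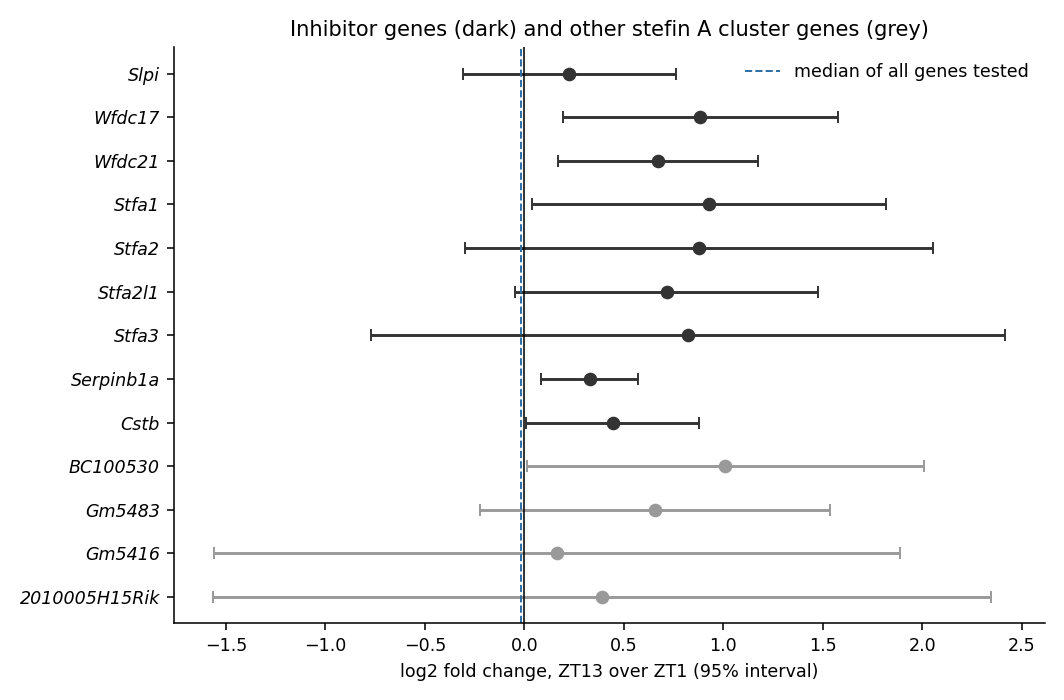
Log2 fold change of ZT13 over ZT1 with its 95% interval for the 9 inhibitor genes (dark) and the other tested genes of the stefin A cluster (grey), with the median of all genes tested (-0.02) as a dashed line. All 13 points lie right of 0, and the widest intervals belong to the genes with the fewest counts.

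The number of members at an unadjusted p under 0.05 depended on which library was left out. Leaving out ZT1 replicate 3 gave 7 members at an unadjusted p under 0.05 in edgeR, all higher at ZT13, beside 6.18% of all genes tested in that fit. Leaving out ZT13 replicate 4 gave 2 (3.05% of all genes), ZT1 replicate 1 gave 2 (2.25%) and ZT1 replicate 2 gave 2 (2.59%). Leaving out ZT13 replicate 3 gave 3 (3.88%) and ZT1 replicate 4 gave 3 (2.23%). The number past the adjusted threshold was 0 each time, and the share of all genes past it in these fits is not given here. Without ZT13 replicate 3, the library with the fewest detected genes, the log2 fold changes were 0.16 for Slpi, 0.85 for Wfdc17, 0.54 for Wfdc21, 0.85 for Stfa1, 0.67 for Stfa2, 0.64 for Stfa2l1, 0.61 for Stfa3, 0.23 for Serpinb1a and 0.44 for Cstb.

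Short transcripts as a class also had higher values at ZT13. Of the 9 genes, 8 have 1200 exon bases or less in the annotation, from 412 for Stfa3 to 1180 for Slpi, and Serpinb1a has 2303. Among 225 other tested genes of that length with 8 or more CPM, 206 had a positive log2 fold change, the median was 0.37, and 29.8% stood at an unadjusted edgeR p under 0.05 with higher values at ZT13. Among 6964 longer genes the median was -0.04 and 5.83% stood there. The median deviation of the short genes from their own mean was 0.09, 0.19, 0.20 and 0.31 (log2) in the ZT13 libraries, against -0.38, -0.18, 0.22 and -0.41 in the ZT1 libraries. The median deviation of the 9 inhibitor genes was -0.03, 0.02, 0.65 and 0.71 in the ZT13 libraries, against -0.77, -0.20, 0.43 and -0.61 in the ZT1 libraries. In both classes ZT1 replicate 3 stood apart from the other ZT1 libraries and within the ZT13 range. Of the 225 short genes, 1 had a larger log2 fold change than Wfdc17, 1 than Stfa1, 3 than Stfa2l1, 7 than Wfdc21, 73 than Cstb and 171 than Slpi. The part of transcript length in the members' differences was not tested, and the class was formed after the data were seen.

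**Figure D3:**
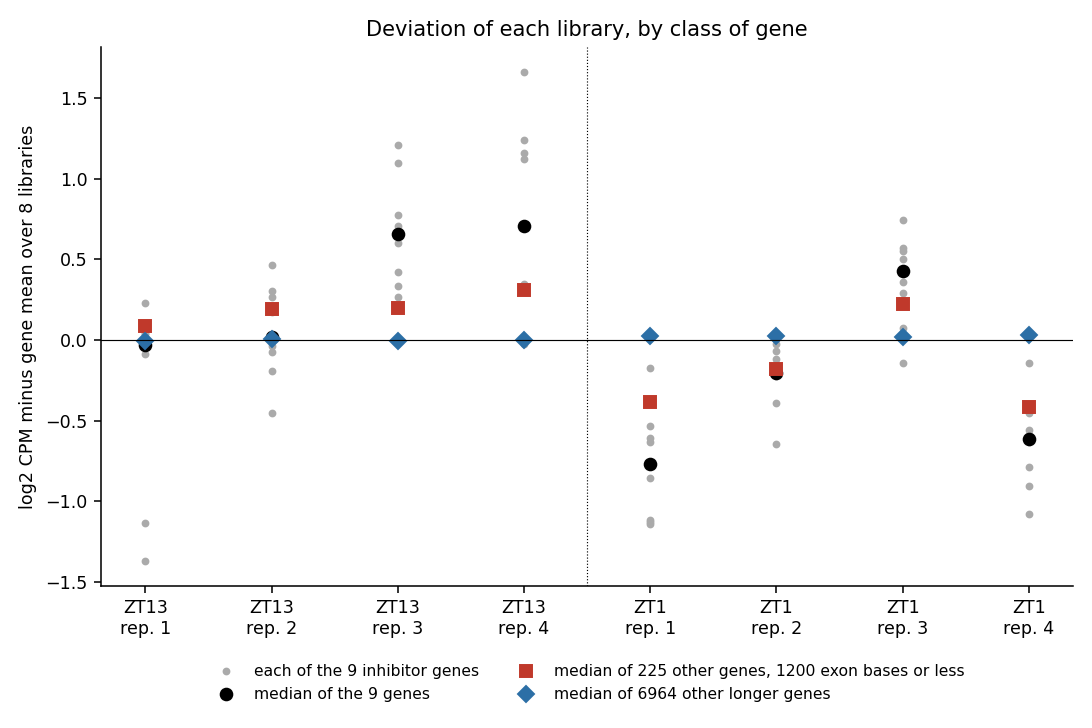
Deviation of log2 CPM from each gene's mean over the 8 libraries, for each of the 9 inhibitor genes (grey points), their median (black), and the medians of 225 other genes with 1200 exon bases or less (squares) and of 6964 longer genes (diamonds). ZT1 replicate 3 stands above 0 for the inhibitor genes (0.43) and the short genes (0.22), and the longer genes stay within 0.04 of 0.

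The remaining genes of the stefin A cluster had positive values as well. BC100530 had 3.84, 4.85, 11.2 and 10.3 CPM at ZT13, against 2.89, 2.96, 6.44 and 2.704 CPM at ZT1, with a log2 fold change of 1.01 ± 0.45 (SE, unadjusted edgeR p of 0.0479 and adjusted p of 0.539). Gm5483, the second of the cluster by counts, had 31.2, 35.3, 57.9 and 68.3 CPM at ZT13, against 14.5, 30.6, 54.4 and 22.9 CPM at ZT1, with a log2 fold change of 0.65 ± 0.39 (SE, edgeR adjusted p = 0.677). In both genes ZT1 replicate 3 was the highest ZT1 library and the groups overlapped. Gm5416 with a log2 fold change of 0.16 and 2010005H15Rik with 0.39 averaged under 1 CPM in both groups (edgeR adjusted p = 0.972 and 0.943). BC117090 and Csta1 did not pass the filter, and Csta1 was at 0 in all ZT13 libraries and in 3 of 4 ZT1 libraries. The pseudogene Gm4758 was not analysed here. Of the 8 cluster genes tested, 8 had positive values, 2 stood at an unadjusted p under 0.05 and 0 were called.

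If each shared read was counted once, the sum over the cluster does not depend on how reads were split among its genes. Reads that were dropped, or counted for several genes, would change the sum, and their handling is not known here. The sum still holds sequence shared beyond the cluster. Of the 50-base windows of Gm5483, 14.2% (260 windows) also occur in transcripts of another gene, with 772 such genes in all. Of these windows, 130 occur in 2010005H15Rik of the same cluster, and 44 occur in Uty outside it. The 10 genes summed to 102, 118, 184 and 210 CPM at ZT13, against 49.3, 92.7, 162 and 63.3 CPM at ZT1. ZT1 replicate 3 lay between the lower and the upper pair of ZT13 libraries. The mean sum was 154 ± 51.5 CPM at ZT13 and 91.7 ± 49.9 at ZT1 (SD, n = 4), a log2 ratio of 0.74. The ratio was 1.17 on the log2 scale without ZT1 replicate 3 and 0.54 without ZT1 replicate 1. The makeup of the sum was alike in both groups. Stfa2l1 gave 40.8 ± 5.60% of it at ZT13 and 40.1 ± 1.84% at ZT1, Gm5483 gave 31.1 ± 1.21% and 33.1 ± 2.78%, and Stfa1 gave 16.2 ± 2.79% and 14.9 ± 0.977%.

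**Figure D4:**
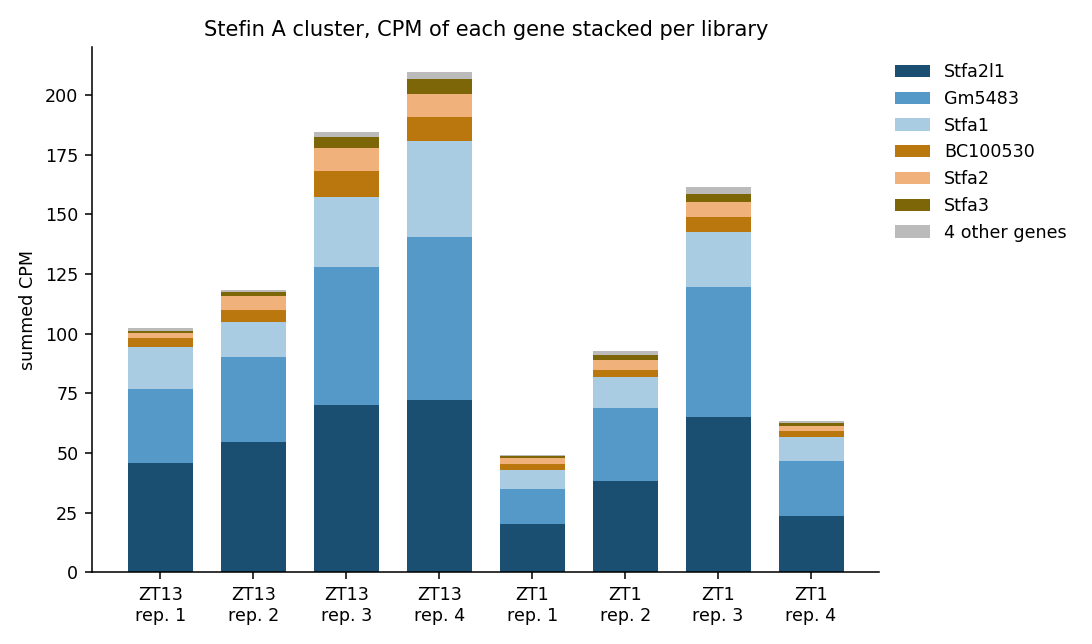
CPM of the genes of the stefin A cluster stacked per library, with the 4 ZT13 libraries left and the 4 ZT1 libraries right. The height differs between libraries of a group by more than 2-fold at both times, from 102 to 210 CPM at ZT13 and from 49.3 to 162 CPM at ZT1, while Stfa2l1, Gm5483 and Stfa1 keep like shares.

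Shared sequence touched 3 of the 4 stefin A members. Of all windows of 50 bases in the annotated transcripts of Stfa2l1, 24.6% also occurred in transcripts of another gene, 62 windows in Stfa2 and 29 in the pseudogene Gm49652. For Stfa1 the share was 22.5%, with 138 windows in BC100530 and 64 in BC117090, and for Stfa2 it was 15.9%. Slpi, Wfdc17, Wfdc21, Stfa3 and Cstb shared 0 windows. Serpinb1a shared 2.81%, with Serpinb1c and Serpinb1b as the main partners, and these had at most 0.0201 and 0.0649 CPM in any library. The sources used here do not say what was done with reads that fit several genes, so the split among Stfa2l1, Stfa2, Stfa1 and BC100530 is uncertain.

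**Figure D5:**
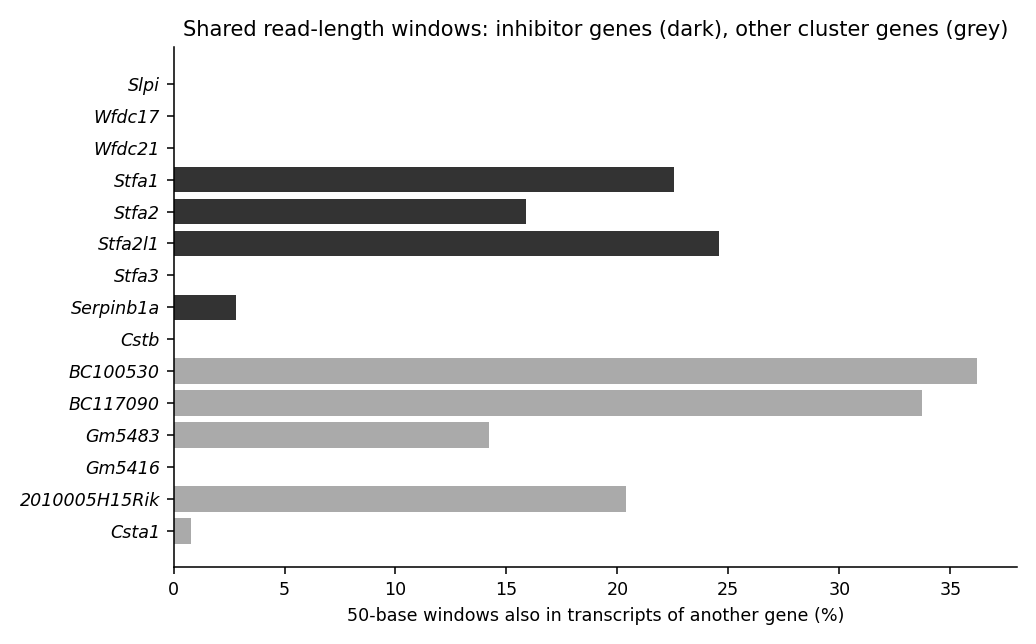
Share of the 50-base windows of each gene's annotated transcripts that also occur in transcripts of another gene, for the inhibitor genes (dark) and the other genes of the stefin A cluster (grey). The share is 0% for 5 of the 9 inhibitor genes and 24.6% for Stfa2l1, and reaches 36.2% for BC100530.

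The stefin A members varied together between libraries, though not they alone, and Serpinb1a had lower Pearson correlations than the stefin A pairs. Pearson's r of log2 CPM over the 8 libraries lay between 0.74 and 0.93 for the 6 pairs among the 4 stefin A members, and between 0.34 and 0.62 for Serpinb1a with the other 8. With the group means taken out, r was 0.75 to 0.92 for the same 6 pairs and -0.05 to 0.41 for Serpinb1a. Slpi or Cstb with the 4 stefins gave 0.57 to 0.96 over 8 pairs, and 0.56 to 0.98 with the group means taken out. Wfdc17 with Stfa1 had 0.97, above every pair of stefin A members, so the joint variation was not particular to the stefins. By Spearman's rho, which uses ranks, the ranges overlapped, with 0.74 to 0.98 for the stefin A pairs and 0.41 to 0.81 for Serpinb1a. The libraries behind these values share the time of sampling and the deviations that other short genes also had. Genes were also ranked by likeness of profile, leaving out predicted genes (Gm and Rik names) and pseudogenes. Of the 7073 remaining genes with 8 or more CPM, those most like Slpi over the 8 libraries were Cox14 (r = 0.97), Fam162a, Tmem205, Prr13 and Gpx1. Those most like Stfa2l1 were Txn1 (r = 0.99), Atp6v1g1, Fam104a, Atox1 and Ifitm2, and those most like the summed cluster were Ifitm2 (r = 0.99), Atox1, S100a6, Sem1 and Prr13. Of these 12 distinct genes, 6 have 1200 exon bases or less. Among all tested genes with 8 or more CPM, members left out, 225 were this short and 6964 were longer.

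The inhibitors were also set against their targets within each library. The ratio of Slpi to Elane on the TPM scale was 15.6, 10.01, 8.32 and 7.61 at ZT13, against 2.65, 10.1, 18.9 and 6.09 at ZT1. The groups overlapped, and both the lowest and the highest ratio belonged to ZT1 libraries. Elane itself averaged 105 ± 42.7 CPM at ZT13 and 118 ± 66.4 at ZT1 (edgeR adjusted p = 0.943). The ratio of Serpinb1a to the sum of Elane, Prtn3 and Ctsg was 1.53 to 4.21 at ZT13 and 1.07 to 3.28 at ZT1. The ratio of Cstb to Ctsb was 0.914, 0.722, 0.958 and 0.998 at ZT13, against 0.515, 0.605, 0.752 and 0.456 at ZT1. Here the groups overlapped through ZT1 replicate 3, which lay above ZT13 replicate 2. These ratios were described without a test.

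Other inhibitor genes were read from the same fit. Of 42 in the table, which include the 6 remaining cluster genes, 25 were tested, 12 had positive and 13 negative values, 3 stood at an unadjusted p under 0.05 with higher and 2 with lower values at ZT13, and 0 were called, with a median log2 fold change of -0.02. Outside the cluster, 1 of 1 WAP gene, 2 of 2 cystatins, 2 of 5 clade B serpins and 3 of 13 inhibitors of other kinds had positive values. Serpinb10 had 10.8, 15.8, 10.7 and 9.45 CPM at ZT13, against 3.52, 8.52, 5.05 and 6.72 CPM at ZT1, without overlap (log2 fold change 0.98, edgeR adjusted p = 0.464). Serpinb6a averaged 41.8 ± 3.48 CPM at ZT13 and 33.5 ± 3.95 at ZT1, also without overlap (log2 fold change 0.32, edgeR adjusted p = 0.519). Cst3, the gene of the secreted cystatin C, averaged 543 ± 80.2 CPM at ZT13 and 410 ± 141 at ZT1 (log2 fold change 0.41, edgeR adjusted p = 0.608). Serpina3g was lower at ZT13, with 0.564 ± 0.312 CPM, against 2.48 ± 2.03 CPM at ZT1 (log2 fold change -2.13, edgeR adjusted p = 0.494).

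Of the proteases listed, 26 were tested, 11 had positive and 15 negative values, and the median log2 fold change was -0.03. At an unadjusted edgeR p under 0.05, 0 stood with higher and 3 with lower values at ZT13 (Ctsc, Adam10 and Adam17), and 0 were called. Not all of these proteases are targets of the inhibitors. By list, 4 of 6 serine proteases, 4 of 11 lysosomal proteases and 3 of 9 matrix metalloproteases and ADAM proteases had positive values. Ctsc encodes the cathepsin that activates the serine proteases of neutrophil granules. It had 800, 1150, 987 and 1139 CPM at ZT13, against 1341, 1142, 1495 and 1484 CPM at ZT1, and the groups overlapped by a small margin (log2 fold change -0.42, unadjusted edgeR p of 0.0105 and adjusted p of 0.473). The sheddase genes Adam10 and Adam17 were lower on average at ZT13, Adam10 with 145 ± 18.5 CPM at ZT13 and 192 ± 25.2 at ZT1 (log2 fold change -0.40, edgeR adjusted p = 0.473) and Adam17 with 94.6 ± 21.3 CPM at ZT13 and 126 ± 10.1 at ZT1 (log2 fold change -0.41, edgeR adjusted p = 0.494). Ctsb averaged 1056 ± 118 CPM at ZT13 and 1169 ± 124 at ZT1 (edgeR adjusted p = 0.740).

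RefSeq promoter windows (GRCm38.p6, 250 bases before to 50 bases after the start) were at hand for 6 of the 9 members, Slpi, Wfdc17, Stfa1, Stfa2, Stfa2l1 and Stfa3. The starts are those of RefSeq and can differ from the GENCODE gene spans given above. The bases printed below for Stfa1, Stfa2 and Slpi lie inside those spans. The 4 stefin A members each hold the letters TTTAAAA near the start. Their first base is at -33 in Stfa2l1, -31 in Stfa3, -30 in Stfa1 and -29 in Stfa2. The letters are printed within 30 bases of each gene. The coordinates are chr16:36156768-36156797, chr16:36455404-36455433, chr16:36277108-36277137 and chr16:36408373-36408402 in the same order, with Stfa3 and Stfa2 on the minus strand.
Stfa2l1: tacagaaaccTTTAAAAccctgagtctctt
Stfa3: acagataaccTTTAAAAccccgagtctcag
Stfa1: ttcggataccTTTAAAAccctgagtctcag
Stfa2: tacagaaaccTTTAAAAccctgagtctcta
On either strand, TTTAAAA occurred in 8.74% of all 32851 promoter windows, and not in those of Slpi and Wfdc17. The 4 stefin A genes are paralogs of 1 cluster with like bases around the letters, so their matches are not independent. Any part of these letters in the joint variation of the genes was not tested. The letters CACGTG, an E-box of the kind bound by the clock proteins CLOCK and BMAL1, occurred in 7.15% of all windows and in 1 of the 6 members, Slpi. They are printed in capitals with 60 bases of the minus strand, chr2:164356621-164356680.
Slpi: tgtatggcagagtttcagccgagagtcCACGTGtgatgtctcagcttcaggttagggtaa
TTANGTAA, read by D-box factors, occurred in 2.32% of all windows and in 0 of the 6, TTCNNNGAA, read by STAT factors, in 8.30% and in 0 of the 6, and TTNNGNAA, a loose form of a C/EBP site, in 40.7% and in 5 of the 6. The motifs were chosen after the sequences were seen, both strands were searched, and no overlap between motifs was removed. A match describes the letters in this window and says nothing of binding.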

How the data were processed

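RNA of sorted spinal cord neutrophils was reverse transcribed and amplified with SMART-Seq v4 from 1 ng, and libraries were made with Nextera XT from 200 pg of cDNA and sequenced as single reads of 50 bases, per the labels' protocols. This preparation does not mark the strand. The authors deposited raw counts per gene for 23369 Ensembl identifiers. Build GRCm38 and the tools STAR 2.7.10b, Subread 2.0.3, featureCounts, FastQC and DESeq2 1.46.0 are named, per the submitters' processing notes, and the sources used here give no settings for them.

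Of the identifiers, 22222 matched GENCODE M21 when versions were ignored. The unmatched held 0.125% of counts. The test was the robust quasi-likelihood F-test of edgeR 4.0.16 under R 4.3.3 (filterByExpr with the groups, minimum count 10 and minimum total 15, TMM, Benjamini-Hochberg over 12610 genes, threshold 0.05). A prior count of 2 entered log2 CPM. The steps were tested on simulated data. A count of 0 allows up to 3 counts, or 0.0414 to 0.0673 CPM, a limit that covers counting error only. TPM divides counts by the annotated exon length.

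The 9 genes, the lists and the named genes were chosen with earlier results of these data known. Named are all members, every cluster gene in the table, the 4 most abundant and the 2 smallest-p genes of each wider list, sort markers and the 5 most alike genes for 3 profiles, and not every gene so allowed is printed. Titles number the replicates of both times 1 to 4, but same-numbered libraries did not deviate together (correlation -0.04 to 0.02), so no block entered the test. Alternatives covered scaling, filter, test (DESeq2 1.42.0, limma 3.58.1 voom), threshold, each library left out, replicate blocks and the stefin cluster summed to 1 feature, the last added after the data were seen. Coding sequences were aligned globally with Biopython in place of proteins, which were not used here. Promoters are from RefSeq.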

Additional observations from a re-analysis of the deposited data

Results flagged for a closer look

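A library was set apart where its gap to the nearest of the other 3 was a larger share of the group's range than the 95% critical value of Dixon's test for 4 samples. Of 145 groups of 4 examined, 11 values were set apart, which is 7.59%. Chance sets apart about 1 in 20 for independent, normally distributed values, which low counts and genes that vary together are not. With 0 in the other 3 libraries of a group, any count at all is set apart. The share is therefore not read as an excess. Wfdc17 stood at 1504 CPM in ZT1 replicate 3, against 721 to 802 CPM in the other ZT1 libraries. In the same library BC100530 stood at 6.44 CPM, against 2.704 to 2.963 in the others, Csta1 at 0.117 CPM, against 0, and Hbb-bs, a haemoglobin gene, at 1.58 CPM, against 0.211 to 0.400. Wfdc3 stood at 0.193 CPM in ZT1 replicate 2 and Wfdc15a at 0.0649 CPM in ZT1 replicate 1, with 0 in the other ZT1 libraries. Ctsb stood at 1232 CPM in ZT13 replicate 2, against 990 to 1012 in the other ZT13 libraries. Ptprc stood at 1601 CPM in ZT1 replicate 1, against 1868 to 1915 in the others. Mobp, a myelin gene, stood at 29.5 CPM in ZT13 replicate 3, against 0.459 to 4.27 in the other ZT13 libraries, and at 11.9 CPM in ZT1 replicate 4, against 0 to 0.150. Hbb-bs also stood at 15.4 CPM in ZT13 replicate 4, against 0.970 to 2.48 in the others. No explanation of these values was tested.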

How the results depend on the processing

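The number of members past the adjusted threshold was 0 under all 19 alternatives, as was that of the wider inhibitor and protease lists. Over all genes, edgeR called 0 of 12610 and DESeq2 118 of 12553. For the other alternatives the number called over all genes is not given here. All 157 alternative fold changes of single members kept their direction and stayed on the same side of the threshold. Stfa3 did not pass the filter of 5 or more CPM in 4 or more libraries. Members at an unadjusted p under 0.05 numbered 5, and 2 to 7 when a library was left out, all higher at ZT13, beside 2.23% to 6.18% of all genes at that p and higher at ZT13. With the replicate number as a block, which the pairing check gave no ground for, 0 members were called, and 6 stood at an unadjusted p under 0.05 by title number (beside 3.28% of all genes, higher at ZT13) and 7 by library name (beside 4.35%). Among the members counts were lowest for Stfa3, at 37 to 277 per library. Another scaling shifted the median of all genes by at most 0.06 (log2). TPM was not among these scalings and was not tested. In TPM each member kept a higher mean at ZT13, by little for some. Slpi averaged 2037 ± 169 TPM at ZT13 and 2013 ± 508 at ZT1, and Serpinb1a 870 ± 128 and 828 ± 108.5. Wfdc17 averaged 6652 ± 2321 TPM at ZT13 and 4236 ± 1078 at ZT1 (SD, n = 4).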
